A study of Mus musculus with 8 samples.

Results

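Cd44 encodes a cell surface receptor for hyaluronan. Its RNA was followed across the peak lists of a crosslinking and immunoprecipitation (CLIP) experiment on Zmat3, in which RNA fragments crosslinked to the protein by UV light are recovered with an antibody and sequenced. Every called peak on the gene's own strand whose midpoint lay in the Cd44 span (mm10, chromosome 2, 102811141–102901669, minus strand, 90529 nt) was taken. This gave 411 of the 978429 called peaks of the 7 lists. The opposite strand held 0 called peaks within the span in each list, and 0 peaks were called on the gene strand within 10000 nt outside it. The span also holds an annotated snRNA gene, Gm23731 (102897960–102898066).

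The cells were mouse embryonic fibroblasts transformed with the adenoviral E1A gene and oncogenic HrasG12V, which both groups carried. The Zmat3 knockout was 1 line of genotype Zmat3-/-;E1A;HrasG12V with no guide RNA, and it gave 1 immunoprecipitate (IP). The 3 control lines were Cas9+;E1A;HrasG12V and carried the negative-control guides EV (control 1), SPA (control 2) and ACOCA (control 3), so the groups also differed in Cas9 and in the guide. The sources used here do not give the age, sex or strain of the embryos. Of the lists, 4 set an IP against input and 3 set a control IP against the knockout IP. Fibroblast markers were called in part: Fn1 had 79 called peaks in the knockout and 70, 74 and 59 in controls 1 to 3, Vim had 21 and 15, 18 and 13, and Sparc had 28 and 19, 27 and 18. Pdgfrb had 2 in the knockout and 16, 12 and 10 in the controls. Pdgfra had 3 in the knockout and 2, 4 and 0 in the controls, Col3a1 had 1 in control 2 only, and Col1a1, Col1a2, Thy1 and S100a4 had 0 in each. The part of these differences between the lines in the Cd44 results was not tested. Of the epithelial markers Epcam had 10 called peaks in the knockout and 9, 5 and 11 in controls 1 to 3. Krt18 had 8 in the knockout and 0, 5 and 0 in the controls, Cdh1 had 1 in the knockout and 0, 0 and 1 in the controls, and Krt8 and Esrp1 had 0 in each. Endothelial markers had 0 called peaks, and leukocyte markers had peaks of Cd68 only, 1 to 3 in each IP.

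CD44 is made from a pre-mRNA with constant exons at both ends and a block of variable exons in the middle, which are skipped in the short standard form and included in various combinations in longer forms. The standard form prevails in fibroblasts and other mesenchymal cells, and longer forms occur in epithelia and many tumours. ZMAT3 is a zinc finger protein induced by p53 that binds RNA and affects splicing, and in human colorectal cancer cells it has been reported to limit inclusion of CD44 variable exons. The RefSeq gene table lists 11 transcripts for mouse Cd44. Exon positions and the sequence of the span were not used here, so sites are given by genome position and by distance from the 5′ end of the span.

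One short stretch of Cd44 stood out by its −log10 p-values in the IPs of all 3 controls over input. It spanned 102829332–102829480 (149 nt, centred 72263 nt from the 5′ end of the span). In the knockout the site had a log2 fold over input of 1.23, against 3.26, 2.43 and 3.64 in controls 1 to 3. The controls averaged 3.11 ± 0.62 (SD, n = 3). The 3 controls lay above the knockout and did not overlap it, as at 34.2% of all sites called in all 4 IPs, counted on values relative to the list medians. The leading site was singled out for its high control values, whereas that share is over all sites. A site is a stretch of called peaks that overlap by at least 1 nt among the over-input lists, and each library is represented there by the highest fold among its peaks. The authors' −log10 p-value at those peaks was 1.67 in the knockout, against 10.9, 8.44 and 11.4 in controls 1 to 3.

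The site was above the typical called peak in the controls, and the difference from the knockout did not pass the test. Relative to the median of each list, the site had a mean log2 fold of 2.41 in the controls (SE 0.36, n = 3), with a limma adjusted p of 0.00524 over the 23623 sites called in all 3 controls. With 1 control left out the mean stayed between 2.10 and 2.70. At that size limma called 0 of the 23623 sites after adjustment, with 5944 to 6147 at an unadjusted p under 0.05, so that the loss of the call there (adjusted p of 0.165 to 0.191) says nothing particular about this site. Of the 23623 sites, 2.91% had a mean at least as high. The knockout minus control difference of the centred log2 fold was −1.41 (SE 0.70), with a limma adjusted p of 0.587 over 16093 sites. In this fit the lone knockout library was taken to vary like the controls, and its 95% interval ran from −2.99 to 0.16. The fit called 0 of the 16093 sites at an adjusted p of 0.05 (0%), and 1452 (9.02%) had an unadjusted p under 0.05. An exact permutation of 1 library against 3 gave p = 0.25 for this site (two-sided), which is the smallest p that this design allows. The site was singled out for its high control values over input, which also enter the difference, its interval and the permutation. Such a choice favours a negative difference, so these values are a description.

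**Figure D1:**
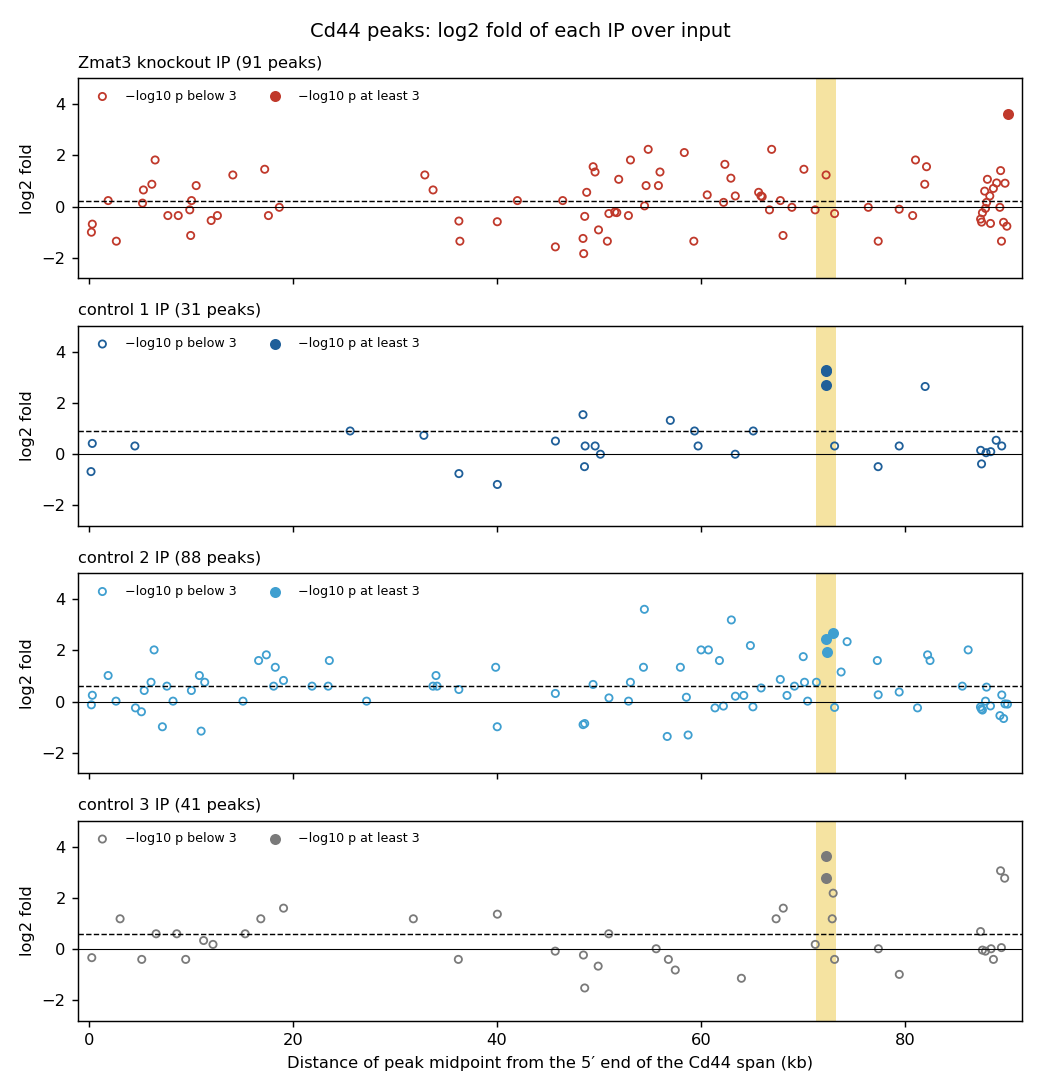
Log2 fold over input of every called Cd44 peak (y axis) by the distance of its midpoint from the 5′ end of the gene span in kb (x axis), with the knockout IP above controls 1 to 3. Filled points have a −log10 p-value of at least 3, the dashed line is the median of the whole list, and the shaded band marks 1 kb to each side of the centre of the leading site. In the controls all filled points lie in the band, and the 1 filled point of the knockout lies at the 3′ end.

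The site was made up of 1 to 3 adjoining peaks in each library. In the knockout there was a single called peak at 102829335–102829479. Control 1 had 3 adjoining peaks, at 102829432–102829475 (log2 fold over input 3.26), 102829378–102829431 (3.26) and 102829360–102829377 (2.69). In control 2 the peak at 102829379–102829478 had a log2 fold of 2.43, and the adjoining one at 102829332–102829378 had 1.92. In control 3 the peak at 102829377–102829480 had 3.64 and the adjoining one at 102829361–102829376 had 2.77. In all 3 controls adjoining peaks met between 102829376 and 102829379. Taking the highest fold among the peaks of a library could thus raise the control values but not that of the knockout. With the mean over the peaks instead, the centred control mean went from 2.41 to 2.12. The knockout minus control difference went from −1.41 to −1.12.

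A second stretch lay downstream of the leading site, in the direction of transcription. At 102828661–102828795 control 2 had a called peak whose log2 fold reached 2.67 against input and 2.30 against the knockout IP, with −log10 p-values of 6.42 and 6.48. Control 3 had a peak inside it at 102828691–102828738 with 2.18 against input and 0.85 against the knockout IP, with −log10 p-values of 0.600 and 0.437. A peak was called there neither in the knockout nor in control 1, which does not show that reads were absent. Calls in 2 controls and not in the knockout were found at 4 Cd44 sites (2.41%), against 7.47% of all sites. Next to the second stretch, at 102828538–102828611, lay a site called in all 4 IPs. Over the knockout IP this site had −1.23, −0.23 and −1.89 in controls 1 to 3. Over input it had −0.28 in the knockout, against 0.31, −0.23 and −0.40 in controls 1 to 3. The knockout lay among the controls on these values, and above all 3 after centring on the list medians.

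Every control peak of Cd44 with a −log10 p-value of at least 3 lay in these stretches. Over input there were 0 such peaks in the window in the knockout, against 3, 3 and 2 in controls 1 to 3. Elsewhere in the gene there was 1 in the knockout and 0 in each control. In the whole lists 0.629% of called peaks reached this value in the knockout, against 1.90%, 1.66% and 0.863% in controls 1 to 3. In the comparison with the knockout IP, 2, 1 and 1 peaks of controls 1 to 3 reached it, all in the same window, where the lists held 2.22%, 2.10% and 1.62%. The 12 values, of which those over the knockout IP belong to peaks that are also in the over-input lists, fell in 820 nt from 102828661 to 102829480, or 0.906% of the span. This window was drawn after the values had been seen. Outside 1 kb around the leading site, the highest −log10 p-value over the knockout IP was 0.406, 2.07 and 0.162 in controls 1 to 3.

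**Figure D2:**
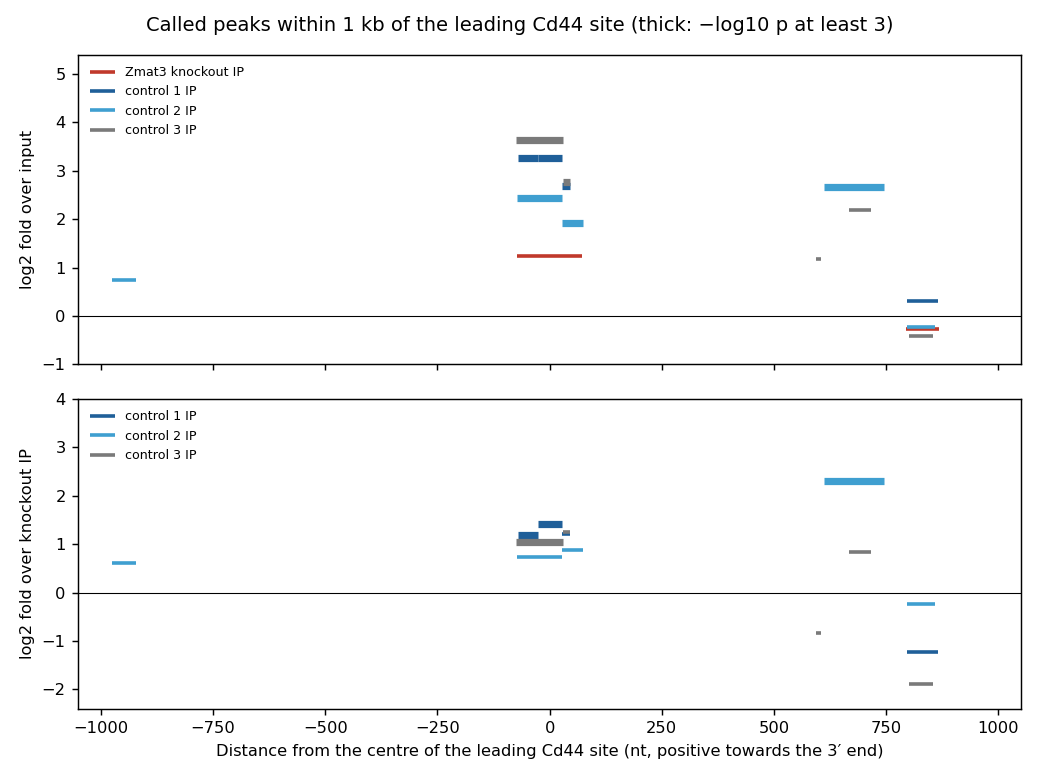
Called peaks within 1000 nt of the centre of the leading site, drawn at their length, with the log2 fold over input (upper panel, knockout and controls 1 to 3) and over the knockout IP (lower panel, controls 1 to 3) on the y axes. Thick bars have a −log10 p-value of at least 3. Over input the leading site stands at 1.23 in the knockout and at 2.43 to 3.64 in the controls, and the stretch downstream of it has peaks in controls 2 and 3 only.

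Few Cd44 peaks passed a combined threshold, a log2 fold no lower than 3 together with a −log10 p-value no lower than 3, which is called enriched here. Over input 1 of 91 called peaks was enriched in the knockout, against 2 of 31, 0 of 88 and 1 of 41 in controls 1 to 3. The shares of all called peaks that were enriched were 0.316% in the knockout, against 1.02%, 1.05% and 0.494% in controls 1 to 3. The enriched control peaks were those of the leading site in controls 1 and 3. In control 2 the site missed the fold threshold. The enriched knockout peak lay elsewhere, at 102811567–102811613, 449 nt from the 3′ end of the span, with a log2 fold of 3.60 and a −log10 p-value of 3.25. In the controls 0 called peaks overlapped it.

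On the fold threshold alone, 1 Cd44 peak passed over input in the knockout and 2 in each control, where 0.487% of all called peaks did in the knockout and 2.52%, 2.21% and 1.04% in controls 1 to 3. The peaks that passed on the fold alone lay away from the leading site. In control 2 these were at 102847179–102847244 with 3.60 over input and at 102838662–102838718 with 3.19, and in control 3 at 102812291–102812335 with 3.06. Over the knockout IP the same peaks had −0.025, −0.23 and −0.76. These 3 peaks were thus high over input while not above the knockout IP.

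Over the knockout IP 0 Cd44 peaks were enriched in each control, where 0.621%, 1.09% and 0.648% of all called peaks of controls 1 to 3 were. The fold threshold alone was also passed by 0 Cd44 peaks, against 2.09%, 2.41% and 2.06% of the lists. Values in these lists are control over knockout, so that a positive one is higher in the control. The highest values in the leading site were 1.41, 0.88 and 1.25 in controls 1 to 3, with a mean of 1.18 ± 0.27 (SD, n = 3). They were near the list medians of 1.18, 0.88 and 1.00. The peaks with the highest fold over input had 1.18, 0.74 and 1.04. The site was above 0 in all 3 controls, as were 46.1% of all sites called in all 4 IPs. The 3 lists share the 1 knockout library. Of the 166 Cd44 sites, 0 were enriched over both comparators in 2 or more controls, where 204 of the 394888 sites of the genome were. At so small a share, a count of 0 does not set Cd44 apart. Mdm4, which encodes an inhibitor of p53, held 2 of the 204.

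The called peaks of Cd44 were spread over the gene and differed between libraries in number. There were 91 in the knockout, against 31, 88 and 41 in controls 1 to 3 (mean 53.3 ± 30.4, SD, n = 3). Control 2 was close to the knockout and above the other controls. As a share of all called peaks, Cd44 had 0.0543% in the knockout and 0.0240%, 0.0572% and 0.0335% in controls 1 to 3. Of 10 equal stretches of the span, the one at the 3′ end held most peaks in every library. The stretch from 81476 nt to the 3′ end held 20 peaks in the knockout and 7, 15 and 8 in the controls, or 22.0% against 22.6%, 17.0% and 19.5%. The stretch at the 5′ end held 10 peaks in the knockout and 3, 12 and 5 in the controls. The stretch from 18106 to 27159 nt had 1 peak in the knockout and 1, 6 and 1 in the controls.

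Merged over libraries, the peaks formed 166 sites, of which 12 were called in all 4 IPs. Each of the sites called in all 3 controls also held a called knockout peak, where 68.1% of such sites did in the genome. A further 49 sites were called in the knockout alone (29.5% of Cd44 sites, against 24.6% of all sites) and 49 in control 2 alone (29.5%, against 19.9%). Control 1 alone had 9 (5.42%, against 15.2%) and control 3 alone had 17 (10.2%, against 14.4%).

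Apart from the leading site, the sites called in all 4 IPs lay near or below input in the knockout and on the control mean. Single controls reached higher values there, up to 1.54 in control 1, 0.47 in control 2 and 1.36 in control 3. Over input 11 of the 12 were below 0 in the knockout, against 3, 5 and 7 in controls 1 to 3. Of all 16093 sites called in all 4 IPs, 64.5% were below 0 in the knockout, against 30.5%, 39.2% and 47.8% in controls 1 to 3, so that the lists as a whole differed in the same direction. The leading site was the highest of the 12 in each library. The median over the 12 was −0.58 in the knockout, against 0.31, 0.25 and −0.16 in the controls. In limma 1 of the 12 sites was above the list median and 1 below it at an adjusted p of 0.05, where 2387 of the 23623 sites were called above (10.1%) and 2387 below (10.1%). The share of Cd44 sites is close to this background. The median centred mean was −0.68 for the 12 sites and −0.40 for all sites.

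The site below the list median lay at 102853015–102853109, 48607 nt from the 5′ end. It had −0.38 over input in the knockout, against 0.31, −0.86 and −1.52 in controls 1 to 3. The centred mean in the controls was −1.39 (SE 0.38, limma adjusted p = 0.0404). The call was lost without centring (limma, Benjamini-Hochberg adjusted p = 0.313). The centred mean was −1.79, −1.35 and −1.02 without control 1, 2 and 3, where 0 of all sites passed the adjusted test. The knockout lay among the controls.

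A site next to it, at 102853123–102853237, had −1.25 over input in the knockout, against 1.54, −0.90 and −0.23 in controls 1 to 3. The spread among the controls was wide at both sites.

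The remaining sites called in all 4 IPs are given from the 5′ end. At 102901259–102901473, centred 303 nt from the 5′ end, the knockout had −0.69 over input, against 0.41, 0.25 and −0.34 in controls 1 to 3. At 102865321–102865452 it had −0.57, against −0.76, 0.47 and −0.40. At 102861552–102861699 it had −0.59, against −1.19, −0.98 and 1.36, where control 3 stood apart from the other two. The knockout lay among the controls at these sites, except that it was the lowest at the first before centring on the list medians. Farther downstream, at 102855894–102855975, the knockout had −1.58, against 0.51, 0.32 and −0.081. Near the 3′ end, at 102824259–102824347, it had −1.35, against −0.49, 0.26 and 0.012. The knockout was the lowest library at both. At 102822202–102822290 it had −0.11, against 0.31, 0.37 and −0.99, and at 102814060–102814333 it had −0.24, against 0.14, −0.21 and 0.68. At the last site, 102812125–102812263, the knockout had −1.35, against 0.31, 0.26 and 0.056. None of these 8 sites differed from the list median in limma, with adjusted p-values between 0.108 and 0.310.

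The knockout minus control differences of the 12 sites had a median of −0.15, against −0.17 over all 16093 sites, and 6 of the 12 were negative, where 57.4% of all sites were. On the centred values the knockout was the lowest of the 4 libraries at 4 sites and the highest at 1, where 34.2% and 23.2% of all sites were. These shares are near the background or below it. The largest differences besides the leading site were −1.36 (SE 0.62) at 102855894–102855975 and −1.10 (SE 0.62) at 102812125–102812263. All 12 adjusted limma p-values lay between 0.565 and 0.993.

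**Figure D3:**
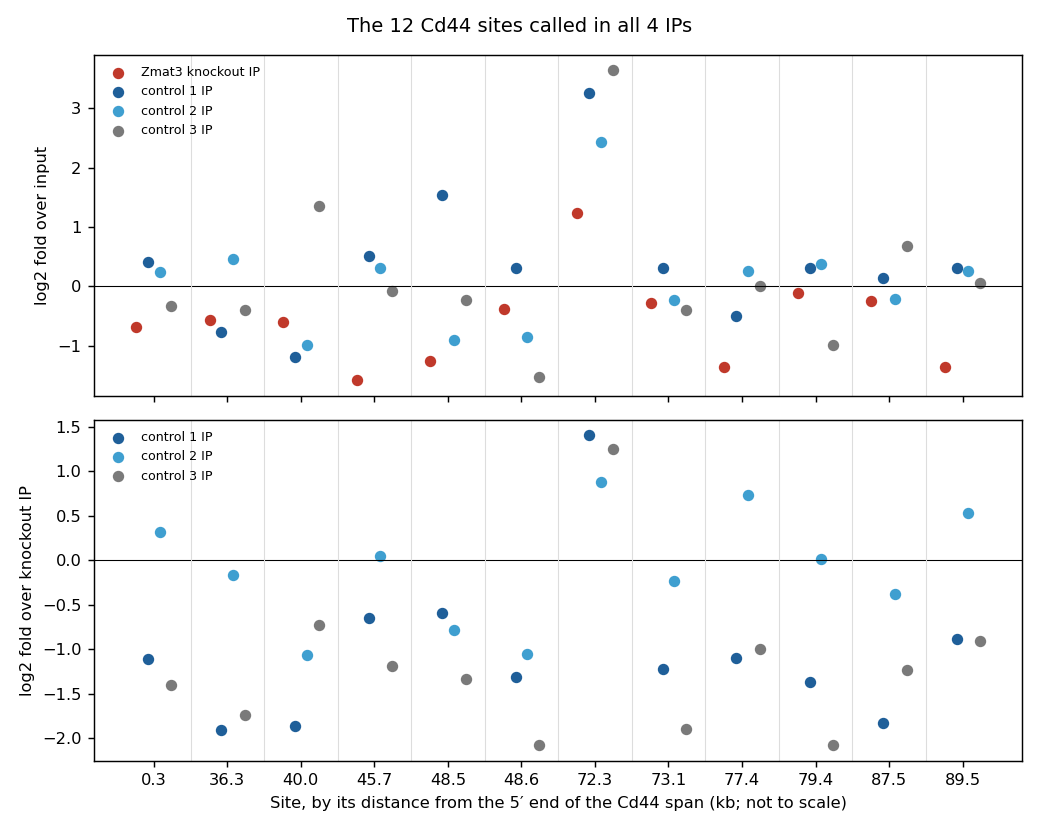
Log2 fold over input in the knockout and controls 1 to 3 (upper panel) and log2 fold of each control over the knockout IP (lower panel) at the 12 Cd44 sites called in all 4 IPs, ordered from the 5′ end (x axis, distance from the 5′ end in kb, not to scale). Each point is 1 library. The site centred 72263 nt from the 5′ end is the highest in every library and in both panels.

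As a whole, Cd44 was low in the control IPs over the knockout IP, relative to other called RNAs. The median log2 fold of Cd44 peaks over the knockout IP was −0.89, 0.042 and −0.72 in controls 1 to 3, against 1.18, 0.88 and 1.00 for all called peaks of these lists. The Cd44 median minus the list median was −2.07, −0.84 and −1.72, and it averaged −1.54 ± 0.63 (SD, n = 3). Among 2780 protein-coding genes with at least 10 called peaks in every list, Cd44 was the 11th, 83rd and 21st lowest in controls 1 to 3. Values below 0 were found at 21 of 31, 40 of 88 and 34 of 41 peaks, where 11.4%, 16.5% and 15.1% of all called peaks were below 0. Peaks of these lists were called in the control IP, which favours values above 0 for all genes.

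The shift was also seen at sites called on both sides. At the 12 sites called in all 4 IPs, 6 were below 0 in all 3 controls, where 12.4% of 15951 such sites in the genome were. The leading site was the 1 site above 0 in all 3, where 46.1% were. Among control peaks that overlap a called knockout peak, a choice made after the data were seen, the Cd44 median minus the median of all such peaks was −1.50, −0.41 and −1.35 in controls 1 to 3. The shift was smallest in control 2 in both readings. Without control 2 the mean difference over all peaks was −1.90.

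**Figure D4:**
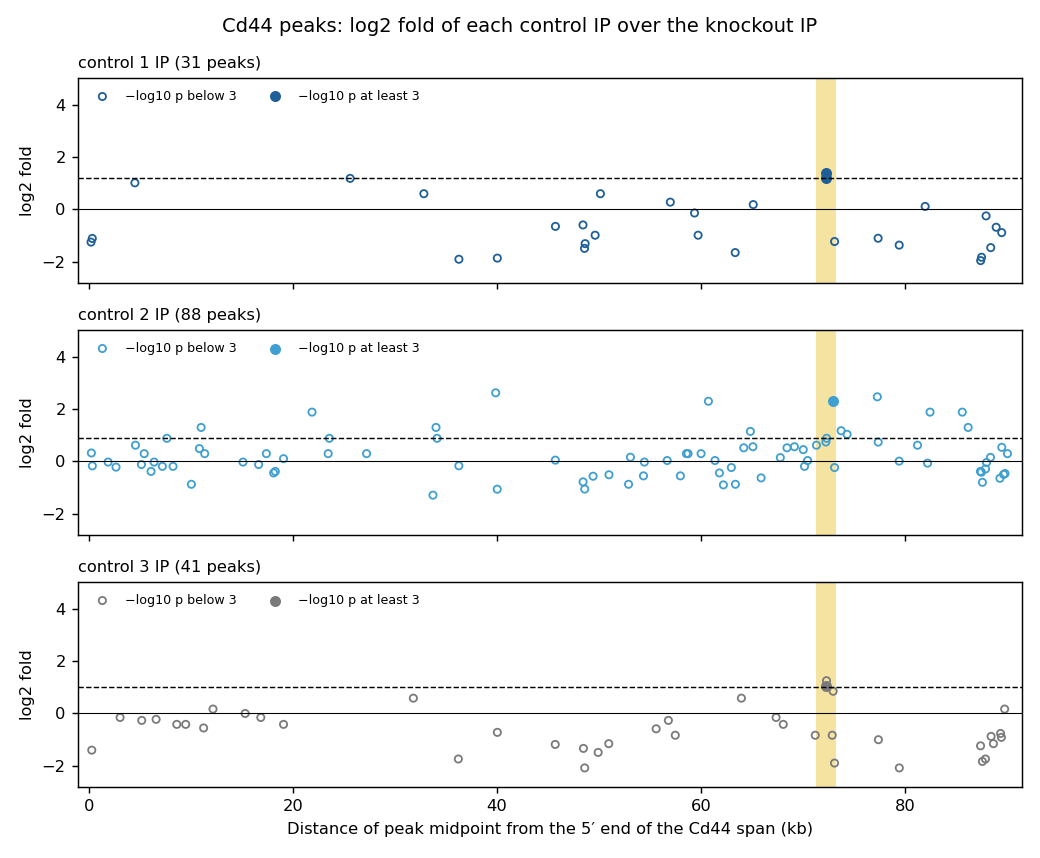
Log2 fold of each control IP over the knockout IP (y axis) for every called Cd44 peak by the distance of its midpoint from the 5′ end in kb (x axis), in controls 1 to 3. The dashed line is the median of the whole list, filled points have a −log10 p-value of at least 3, and the band marks 1 kb to each side of the leading site. Most peaks lie below the dashed line, and all filled points lie in the band.

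Over input the gene was not shifted to the same extent. The Cd44 median lay −0.070 from the list median in the knockout, and −0.58, −0.054 and −0.42 from it in controls 1 to 3 (mean −0.35 ± 0.27, SD, n = 3). Of the 2780 genes, 42.5% were lower than Cd44 in the knockout, against 10.5%, 40.3% and 21.6% in controls 1 to 3. The knockout and control 2 were again close to each other. Values below 0 over input were found at 43 of 91 Cd44 peaks in the knockout, against 8 of 31, 23 of 88 and 16 of 41 in controls 1 to 3, where the lists held 41.1%, against 17.3%, 19.5% and 25.3%.

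Over one and the same stretch, the 3 log2 folds at a site called in a control and in the knockout would give the ratio of the inputs. The control fold over input, minus the knockout fold over input, minus the control fold over the knockout IP leaves knockout input over control input. This derivation, chosen after the data were seen, assumes that the authors computed all 3 values from the same libraries on the same scale and set each IP against its own input, which the labels do not state. It also treats a control peak and an overlapping knockout peak as the same stretch, though their ends differ. The ratio at Cd44 sites had a median of 1.80, 0.66 and 2.03 (log2) for the knockout over controls 1 to 3, from 16, 31 and 19 sites, against 0.55, 0.39 and 0.30 over all sites. Under these assumptions the Cd44 input level, relative to all sites, was higher in the knockout by 1.25, 0.27 and 1.73, and this averaged 1.08 ± 0.75 (SD, n = 3). The average was 1.05 for pairs that overlap by at least 0.5 of the longer peak. All 3 values share the 1 knockout IP and the 1 knockout input, so the SD holds no variation between knockout libraries. The ratio itself was above 0 at 15 of 16, 28 of 31 and 19 of 19 Cd44 sites, where 72.1%, 66.5% and 60.8% of all sites were. The inputs have no list of their own, and more cells expressing Cd44 and more Cd44 RNA per cell cannot be told apart in bulk lysates.

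Set against the median of the Cd44 peaks, the leading site was high in the controls in both comparisons. Over the knockout IP it lay 2.29, 0.84 and 1.97 above the Cd44 median in controls 1 to 3 (mean 1.70 ± 0.76, SD, n = 3). Over input it lay 1.07 above the Cd44 median in the knockout, and 2.95, 1.88 and 3.46 above it in controls 1 to 3 (mean 2.76 ± 0.80, SD, n = 3). The site had been singled out for its values over input, so these distances are a description.

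Mdm2 lay below the list median over the knockout IP, as Cd44 did, whereas Mdm4 and the targeted gene Zmat3 lay above it. Zmat3 had 38 called peaks over input in the knockout and 42, 48 and 39 in controls 1 to 3, and which part of the gene was deleted is not stated, so that these peaks do not check the genotype. Its median over the knockout IP lay 1.42, 0.89 and 0.91 above the list median. Mdm2, encoding the ubiquitin ligase of p53, was at −3.02, −0.69 and −2.89 from it, and Mdm4 was at 0.15, 0.42 and 0.32. The derived input ratio of knockout over control, relative to all sites, was 2.44, −0.56 and 2.72 for Mdm2, −0.66, −0.64 and −0.50 for Mdm4 and 0.99, 0.44 and 0.75 for Zmat3. It uses only sites with a called knockout peak (10, 15 and 13 in Zmat3), so parts of Zmat3 without one are not covered. Over the knockout IP 4, 16 and 1 Zmat3 peaks were enriched in controls 1 to 3 (0.621%, 1.09% and 0.648% of the lists). Below 0 were 14 of 42, 22 of 48 and 17 of 39 (11.4%, 16.5% and 15.1% of the lists). In Mdm2, as in Cd44, control 2 stood apart from controls 1 and 3.

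**Figure D5:**
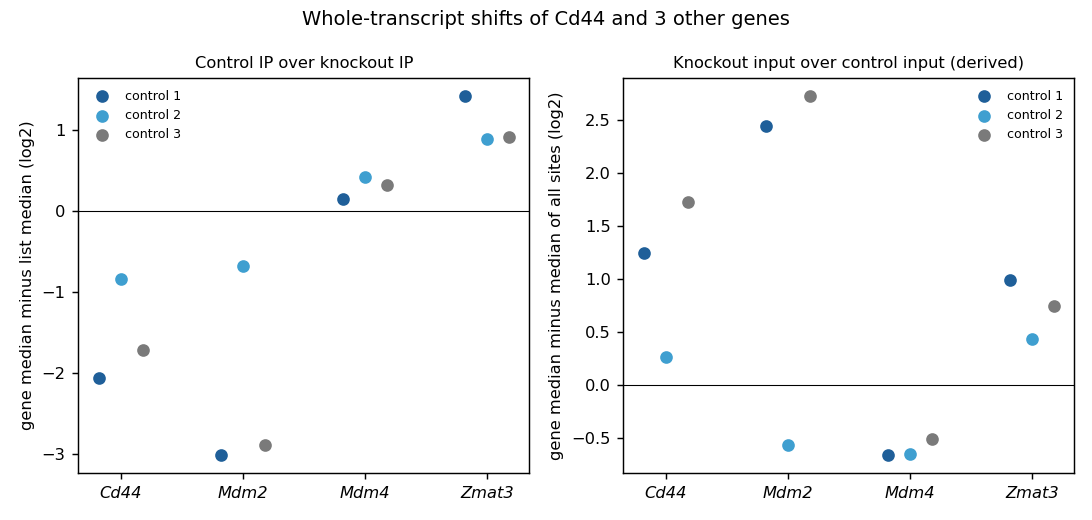
Gene medians in controls 1 to 3 (points) for Cd44, Mdm2, Mdm4 and Zmat3. The left panel shows the log2 fold of the control IP over the knockout IP relative to the list median, and the right panel the derived log2 ratio of knockout input over control input relative to all sites. Cd44 is below 0 on the left and above 0 on the right in all 3 controls.

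The genes whose profile over the 7 lists was most like that of Cd44 were Esyt2, Cltc, Msn, Gtf3c1 and Igf2r. Likeness was the Euclidean distance between gene medians minus list medians, among 263 genes with 0.5 to 2 times as many called peaks as Cd44 in every list, and the distances were 0.88, 0.96, 1.19, 1.23 and 1.26. Esyt2, which encodes a tether between the endoplasmic reticulum and the plasma membrane, had gene medians minus list medians of −1.32, −0.58 and −1.58 over the knockout IP. Cltc, the clathrin heavy chain, had −1.65, −0.55 and −1. Over input Cltc held 0 enriched peaks in the knockout, against 2, 5 and 3 in controls 1 to 3. The lists as a whole held 0.316% in the knockout, against 1.02%, 1.05% and 0.494% in controls 1 to 3. Msn encodes moesin, which links CD44 to actin, and had −1.54, −0.27 and −0.89. Igf2r, a lysosomal sorting receptor, had −1.58, −0.91 and −1.42, and Gtf3c1, a subunit of transcription factor TFIIIC, had −1.19, −0.58 and −1.15.

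Of 32 genes for CD44 ligands and partners, 21 had called peaks in all 4 IPs, and 2 of these, Src and Iqgap1, had enriched peaks over input in at least 2 controls (9.52%, against 5.64% of the 7866 protein-coding genes called in all 4 IPs). Src, a tyrosine kinase that signals downstream of CD44, had 0 enriched peaks in the knockout against 1, 3 and 1 in controls 1 to 3, and 1, 2 and 1 over the knockout IP. Iqgap1, an actin scaffold protein, had 0 against 1, 1 and 0, and 0 over the knockout IP in each control. Of all called peaks over input, 0.316% were enriched in the knockout, against 1.02%, 1.05% and 0.494% in controls 1 to 3. Over the knockout IP 0.621%, 1.09% and 0.648% were enriched. Over input the lists as a whole thus had the lowest share in the knockout. Hmmr, another hyaluronan receptor, had 1 enriched peak in control 2, and Met, a receptor tyrosine kinase that uses CD44 variants as coreceptor, had 1 in control 1. Other members with as many were left out by alphabetical order. Enriched peaks over the knockout IP in at least 2 controls were found in 2 of the 21 genes (9.52%, against 6.61% of the 7866). The median over the knockout IP lay below the list median in all 3 controls for 7 of the 21 genes (33.3%, against 20.4% of the 7866).

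Of 20 genes for proteins reported to act on CD44 variable exons, 18 had called peaks in all 4 IPs and 2 had enriched peaks over input in at least 2 controls (11.1%, against 5.64%). These were Hnrnpl and Ptbp1, both encoding splicing regulators of the hnRNP group, with 0 in the knockout and 1, 1 and 0 in controls 1 to 3 each. The lists as a whole held 0.316% enriched peaks in the knockout, against 1.02%, 1.05% and 0.494% in controls 1 to 3. Over the knockout IP Hnrnpl had 1 enriched peak in each control, and Ptbp1 had 1, 0 and 0 (0.621%, 1.09% and 0.648% of the lists). The RNA helicase gene Ddx5 and the SR protein gene Srsf1 had 1 enriched peak each over input, in control 2. Other members with as many were left out by alphabetical order. Enriched peaks over the knockout IP in at least 2 controls were found in 3 of the 18 genes (16.7%, against 6.61%). Zmat3, the targeted gene, was among them. The median over the knockout IP lay below the list median in all 3 controls for 9 of the 18 genes (50%, against 20.4%). In the knockout 0 genes of either list had an enriched peak over input, against 2.77% of the 7866.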

How the data were processed

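Per the labels' protocols, Zmat3 was precipitated with a specific antibody after UV crosslinking and RNase treatment, and complexes of 35 to 110 kDa were sequenced. The authors deposited 7 peak lists on mm10, the build in the submitters' processing notes. The authors computed a log2 fold for each peak (IP over input, or control IP over knockout IP) and, beside it, a −log10 p-value, which stops at 400. Which unit a column holds was read from its values. The sources used here do not name the aligner, peak caller or duplicate handling. The lists hold no read counts, so depth is unknown and no counting interval is given. Many values are tied: 58 of 91 Cd44 peaks over input shared their log2 fold with another in the knockout, against 14 of 31, 47 of 88 and 26 of 41 in controls 1 to 3.

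Coordinates are 1-based. Gene spans came from the RefSeq table of GRCm38.p6. Strands came from the RefSeq promoter table or, for 1715 protein-coding genes, from at least 90% of their called peaks, which gave the listed strand in 97.8% of 7390 genes with both. Peaks of the 4 over-input lists were merged at 1 nt of overlap. Centred log2 folds were fitted with limma 3.58.1 in R 4.3.3 (eBayes, Benjamini-Hochberg adjustment over all sites), a procedure also tested on simulated data. The controls are separate guide lines with 1 library each, so p-values measure the spread between these libraries. Named genes were Cd44, Zmat3, Mdm2 and Mdm4, the 5 genes most like Cd44, and up to 4 members of each list with most enriched peaks over input in the controls, ties taken alphabetically. Members, lists and thresholds were chosen with earlier results of these data known. Alternatives were other thresholds, overlaps and site values, and leaving out each control.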

Additional observations from a re-analysis of the deposited data

Results flagged for a closer look

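One Cd44 site had opposite signs over input in the knockout and in the controls. At 102812125–102812263, near the 3′ end of the span, the knockout had a log2 fold over input of −1.35, against 0.31, 0.26 and 0.056 in controls 1 to 3 (mean 0.21 ± 0.14, SD, n = 3), so that the knockout was below input and all 3 controls above it. The authors' −log10 p-value at these peaks was 0 in the knockout, against 0.169, 0.354 and 0.0543 in controls 1 to 3. No library was thus clearly apart from input there. That the signs differ was not tested by itself. Of the 16093 sites called in all 4 IPs, 12.6% showed this pattern. After centring on the list medians the difference was −1.10 (SE 0.62, limma adjusted p = 0.621), and the centred control mean was −0.49.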

How the results depend on the processing

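Of 110 recomputed values, 85 kept their direction and their side of the threshold or moved little. The 1 enriched knockout peak was lost (0) at a log2 fold of at least 4 or a −log10 p-value of at least 5. The mean of 1 enriched Cd44 peak over input in the controls became 2.33 at a log2 fold of at least 2, 0 at a log2 fold of at least 4, 2 without a limit on the p-value, and 0.5 to 1.5 without 1 control. Over the knockout IP the control mean of 0 became 0.333 at a log2 fold of at least 2. The count of 0 reproducible sites became 1 over input alone. Sites called in the controls without a knockout peak numbered 0 to 3 when 1 control was left out. The counts of 1 site above and 1 site below the list median became 0 and 0 without any 1 control, where 0 of all 23623 sites passed, and the count below became 0 without centring, as 2 libraries give fewer degrees of freedom and uncentred folds lie higher. With means in place of medians the Cd44 shift over input in the knockout turned from −0.070 to 0.13. No paired analysis was possible because the inputs that share replicate numbers with the IPs have no list of their own and the knockout has 1 library. Values of single peaks are limited by unknown depth and by ties.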

Other observations

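The RNAs that were lowest over the knockout IP included a CD44 ligand. Spp1, which encodes osteopontin, was the lowest of the 2780 genes in all 3 lists, with a gene median minus list median of −4.98, −5.21 and −3.86 in controls 1 to 3. It had 18 called peaks over input in the knockout and 12, 11 and 11 in the controls. Fn1, encoding the matrix protein fibronectin, had −2.03, −1.75 and −2.00, and Vim, the mesenchymal intermediate filament vimentin, had −2.26, −1.02 and −2.62. Mmp14, a membrane protease that cleaves CD44, had −1.30, −0.92 and −0.78. Not all fibroblast markers were low: Pdgfrb, a growth factor receptor, had 1, 1.42 and 1.17. These genes were picked from the lists after their values had been seen.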
